A study of Schizosaccharomyces pombe with 12 samples.

Results

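The ppk genes of the fission yeast Schizosaccharomyces pombe were named as predicted protein kinases when the genome was annotated, and many still carry only a number. They were taken by name alone: every probe set of the Affymetrix Yeast Genome 2.0 array that the platform annotation assigns to exactly 1 S. pombe gene, with the letters ppk and a number as its symbol. This gave 27 probe sets for 27 genes, of 2917 probe sets for 2899 S. pombe genes. RefSeq now lists 5 of the 27 under other names, namely ppk2 as tea5, ppk19 as vps15, ppk21 as pdk1, ppk23 as cdk11 and ppk34 as ckk2. The set is held together by its names and not by a shared pathway, and the platform symbols are used below.

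Protein kinases transfer phosphate from ATP to other proteins and so switch them between states, and in fission yeast they control growth, the cell cycle, cell shape and the response to heat, oxidants and starvation. The ppk genes cover several of these roles, from the Vps34 lipid kinase complex of autophagy and vacuolar sorting (ppk19) to relatives of Greatwall and Rim15 kinases (ppk18, ppk31) and kinases of the DYRK family (ppk15). HIRA is a conserved histone chaperone complex that deposits histones independently of DNA replication, and Slm9 and Hip1 are its HIRA-type subunits in fission yeast.

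The study set cells that lack slm9 or hip1 beside wild type (WT), through a mild and a severe stress. Slm9D cells were h-, leu1-32, ura4-D18, slm9::ura4, hip1D cells were h-, leu1-32, ura4-D18, hip1::ura4, and WT cells were h-, leu1-32, ura4-D18, so that every mutant culture carried the ura4 marker and no WT culture did. Log-phase cells grown in YES medium at 32 °C were kept at 40 °C for 1 h, given 25 mM H2O2 for 1 h, given 40 °C for 1 h and then 25 mM H2O2 for 1 h, or collected unstressed, and the 4 samples of a strain are described as aliquots. With 3 strains, 4 conditions and 1 array of total RNA for each pair, the series holds 12 arrays: 8 of mutants and 4 of WT. Each condition therefore has 1 WT array and 2 mutant arrays, slm9D and hip1D, which stand in as a pair of repeats of HIRA loss. No label says that a strain was sampled more than once per condition, so what the p-values gauge is how far these arrays scatter and not how far repeated cultures would. RNA came from whole cultures, in which fewer cells expressing a gene and less RNA per cell cannot be told apart.

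All values are log2 of the deposited intensity, and a step of 1 is a 2-fold change. Tests are limma's, with p-values adjusted by Benjamini-Hochberg over all 2917 probe sets, and a gene is said to be called, or higher or lower in a count, where its adjusted p was under 0.05. All 27 ppk genes were above background, and so were all 324 of their values, with the background taken on each array as the 95th percentile of 2601 probe sets outside the S. pombe annotation. The labels held for slm9, at 4.84 to 5.39 in slm9D against 9.23 to 9.95 in WT, and ura4 read 11.17 to 11.82 in the mutants against 4.16 to 5.15 in WT. The hip1 probe set was only about 1 step lower, at 8.30 to 8.47 in hip1D against 9.33 to 9.83 in WT, and whether it lies inside the deleted stretch is not given in the sources used here. The WT array after H2O2 stood apart, with a median over all probe sets of 9.36 against 9.46 to 9.57 on the other 11 arrays, and a median over the ppk genes of 8.35 against 8.59 to 9.28. On it the background was also highest, at 4.03 against 3.55 to 3.93. A 28S ribosomal RNA control probe set read 12.69 to 13.40 on the 6 arrays after H2O2, with or without heat, and 9.62 to 10.74 on the 6 without. The excess of 3' over 5' signal of the RIP1 control was 0.85 to 1.34 in the mutants and 0.76 to 0.90 in WT. That of the ACT1 control was 0.45 to 0.89 in the mutants and 0.39 to 1.03 in WT, with no such gap between them. The part of these array differences in the results below was not tested. Some averages over conditions or strains lose a call or move by over 1.5 times without the WT array after H2O2. Where such an average is printed for a single ppk gene, or as a count of ppk genes, it is given with and without that array. The differences between mutants and WT after H2O2, and between their responses to H2O2, rest on that single WT array and cannot be given without it.

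ppk31 (SPBC725.06c, also mug25), a relative of the Greatwall and Rim15 kinases that act in nutrient and cell-cycle control, was high in both HIRA mutants in every condition and low in WT cells in only 2 of 4. ppk31 measured 9.93 and 9.85 in slm9D and hip1D cells at 40 °C, 8.16 and 8.22 after H2O2, 8.72 and 8.83 after 40 °C then H2O2 and 8.32 and 8.39 unstressed. WT cells had 9.92 at 40 °C, 4.71 after H2O2, 8.46 after 40 °C then H2O2 and 5.41 unstressed. The unstressed and H2O2-treated WT arrays were thus far below all 10 others, whereas at 40 °C the 3 strains lay within 0.08 of each other. Under H2O2 the mean of the mutants was 3.48 ± 0.08 above WT (SE; limma, adjusted p = 2.01e-14), or 11.2-fold. Unstressed cells differed by 2.95 ± 0.08 (adjusted p = 3.13e-13), or 7.72-fold. After 40 °C then H2O2 the difference was 0.32 ± 0.08 (adjusted p = 0.00404), and at 40 °C it was -0.03 ± 0.08 (adjusted p = 0.766). In these per-condition tests the single WT array is assumed to vary as the mutant pair does.

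Seen as a stress response, ppk31 was higher at 40 °C in all 3 strains, by unequal amounts. The step of 40 °C over unstressed was 1.61 in slm9D (3.05-fold), 1.47 in hip1D (2.76-fold) and 4.51 in WT (22.9-fold). The mutants' mean step was smaller than that of WT by 2.98 ± 0.12 (SE, adjusted p = 6.2e-13). For 40 °C then H2O2 the steps were 0.40 in slm9D, 0.45 in hip1D and 3.05 in WT, a difference of -2.63 ± 0.12 (adjusted p = 6.91e-12). H2O2 alone moved it by -0.16 in slm9D, -0.16 in hip1D and -0.70 in WT, and this difference of 0.54 ± 0.12 (adjusted p = 0.00133) was 0.21 with an adjusted p of 0.121 when 32 was added to each intensity before the logarithm. These 3 differences share the unstressed arrays. The WT range of ppk31 over its 4 arrays, 5.21, ranked 5 of all 2917 probe sets, and the median WT range was 1.06 for the ppk genes and 0.79 for all probe sets.

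Averaged over the 4 conditions, ppk31 was 1.68 ± 0.51 higher in the mutants (SE, adjusted p = 0.0212), a value that joins conditions with and without a difference. Without the WT array after H2O2 it was 1.08 with an adjusted p of 0.0847, and without the 3 unstressed arrays it was 1.26 with an adjusted p of 0.135. Over strains, the 40 °C step averaged 2.53 ± 0.68 (adjusted p = 0.0134), and it was 1.54 without the WT arrays. The step for 40 °C then H2O2, 1.30 ± 0.68, was not called (adjusted p = 0.131), but without the WT arrays it was 0.42 with an adjusted p of 8.8e-06.

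**Figure D1:**
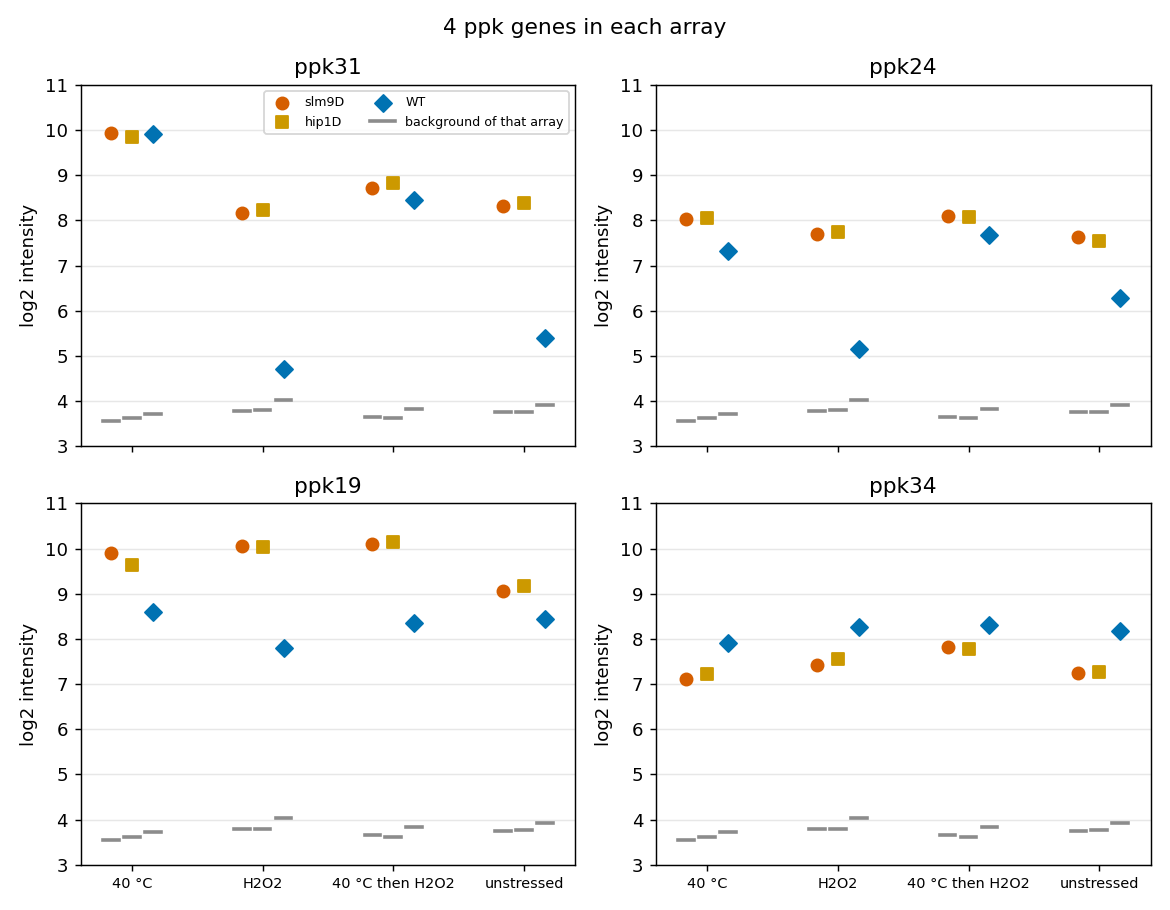
Log2 intensity of ppk31, ppk24, ppk19 and ppk34 on each of the 12 arrays, by condition, with slm9D, hip1D and WT as separate symbols (1 array each) and the background of each array as a short grey line. The mutants hold ppk31 at 8.16 to 8.39 after H2O2 and unstressed, where WT reads 4.71 and 5.41, and in all 4 conditions ppk19 is higher and ppk34 lower in the mutants.

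The probe sets whose 12 values ran most like those of ppk31 were mug126 (Pearson r = 0.974), mdb1 (0.965), mug130 (0.960), wtf17 (0.959) and pku80 (0.956). The 12 points share strains and conditions, and the correlations are a description only. mug126 and mug130 carry the name of meiotically upregulated genes, mdb1 encodes a chromatin protein that binds phosphorylated histone H2A at DNA breaks, pku80 encodes a subunit of the Ku end-binding complex, and wtf17 belongs to a repeated family whose copies a probe set may not tell apart. Among the ppk genes the most alike were ppk24 (r = 0.883), ppk33 (0.821) and ppk26 (0.784). In each of these 8 genes the WT arrays unstressed and after H2O2 were the 2 lowest of 12. ppk31 was itself lowest on those 2 arrays, so this order largely follows from picking genes by their likeness to it. pku80 read 9.27 and 9.34 in H2O2-treated slm9D and hip1D cells against 8.29 in WT cells, and 9.26 and 9.32 in unstressed slm9D and hip1D cells against 8.89 in WT cells. mug126 in WT cells after H2O2, at 3.44, was below that array's background. The gene next to ppk31, pex5, which encodes the receptor for peroxisomal import, read 8.37 and 8.39 in unstressed slm9D and hip1D cells against 8.64 in WT cells, a difference of -0.26 (adjusted p = 0.0103). After H2O2 the pex5 difference was 0.15 (adjusted p = 0.0945), at 40 °C -0.11 (adjusted p = 0.244) and after 40 °C then H2O2 -0.17 (adjusted p = 0.0727). Of 4 neighbours looked up, 2 on each side, it was the only one tested here.

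Across all 27 ppk genes, loss of HIRA more often went with higher than with lower levels, led by ppk31, ppk19, ppk24 and ppk33, while ppk34, ppk1, ppk13 and ppk21 were lower. Averaged over conditions, 12 ppk genes (44.4%) were higher in the mutants, where 25.3% of all 2917 probe sets were higher. Lower in the mutants were 4 ppk genes (14.8%), where 28.7% of all were lower. The median difference was 0.18 for the ppk genes, 0.14 for 77 other protein kinase genes and -0.02 for all probe sets. Without the WT array after H2O2, 7 ppk genes were higher and 4 lower, beside 22.1% and 27.1% of all probe sets. With quantile normalization on the S. pombe probe sets alone 9 were higher and 6 lower, beside 22% and 33.1% of all.

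By condition, the largest share of ppk genes differed under H2O2, as it did for all probe sets (75.2%). At 40 °C 12 were higher and 5 lower in the mutants, where 29.3% and 34.1% of all probe sets were higher and lower. After H2O2 17 were higher and 4 lower, beside 38% and 37.2% of all. After 40 °C then H2O2 11 were higher and 6 lower, beside 29.5% and 29.6% of all. In unstressed cells 10 were higher and 7 lower, beside 26% and 34.6% of all. The median difference of the ppk genes was 0.05 at 40 °C, 0.38 after H2O2, 0.07 after 40 °C then H2O2 and 0.05 unstressed, with -0.03, -0.01, -0.01 and -0.04 for all probe sets. A difference of at least 2-fold was reached by 7 ppk genes after H2O2, all higher in the mutants, where 12.8% of all probe sets were that much higher and 2.61% that much lower. It was reached by 2 at 40 °C, both higher (6.38% of all higher and 0.891% lower), and by 1 after 40 °C then H2O2, also higher (5.9% and 0.48%). Unstressed, 2 were that much higher and 1 lower (5.76% and 0.788%).

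**Figure D2:**
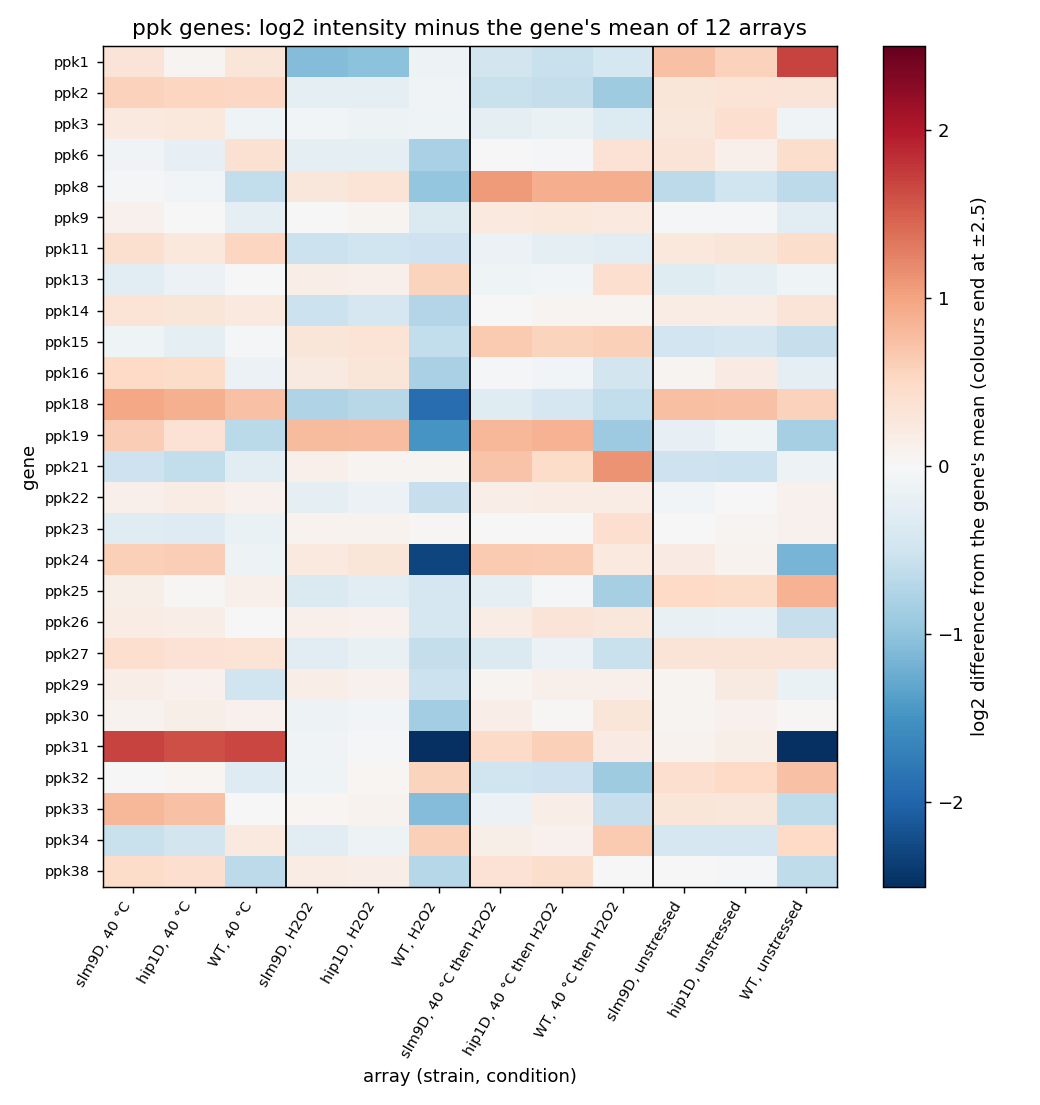
Log2 intensity of the 27 ppk genes on the 12 arrays, each gene minus its own mean over the arrays, with arrays grouped by condition and, within a condition, in the order slm9D, hip1D and WT. Colours run from blue (below the mean) to red (above it) and end at ±2.5; slm9D and hip1D look alike within each condition, and the strongest blue cells are WT after H2O2 (ppk18, ppk24, ppk31) and WT unstressed (ppk31).

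Called higher in the mutants in every condition were 5 ppk genes, ppk16, ppk19, ppk24, ppk33 and ppk38, a pattern of 13% of all probe sets. Both mutants were above WT in each condition in these 5 and in ppk18, an order that 20.8% of all probe sets showed. In ppk16 and ppk19 alone, among the ppk genes, all 8 mutant arrays lay above all 4 WT arrays, a pattern of 7.64% of all. ppk19 (vps15) encodes the regulatory subunit of the Vps34 phosphatidylinositol 3-kinase. ppk19 stood at 9.89 and 9.64 in slm9D and hip1D cells at 40 °C, 10.07 and 10.04 after H2O2, 10.11 and 10.15 after 40 °C then H2O2 and 9.07 and 9.17 unstressed. The WT values were 8.60 at 40 °C, 7.80 after H2O2, 8.36 after 40 °C then H2O2 and 8.44 unstressed. It was 1.16 ± 0.09 higher at 40 °C (adjusted p = 4.31e-08), 2.26 ± 0.09 after H2O2 (adjusted p = 8.6e-12), 1.77 ± 0.09 after 40 °C then H2O2 (adjusted p = 4.21e-10) and 0.68 ± 0.09 unstressed (adjusted p = 1.69e-05). Both mutants had more ppk19 signal under each stress than unstressed, and WT had its lowest value after H2O2. Over conditions the difference was 1.47 ± 0.21 (adjusted p = 0.00038), and 1.20 without the WT array after H2O2.

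ppk24 followed ppk31 in part, with its 2 lowest values in WT cells after H2O2 and unstressed. In slm9D and hip1D cells ppk24 read 8.04 and 8.05 at 40 °C, 7.69 and 7.75 after H2O2, 8.10 and 8.07 after 40 °C then H2O2, and 7.64 and 7.54 unstressed. In WT cells it read 7.32 at 40 °C, 5.16 after H2O2, 7.69 after 40 °C then H2O2 and 6.29 unstressed. The mutants were 2.56 ± 0.09 above WT after H2O2 (adjusted p = 1.27e-12), or 5.91-fold, and 1.30 ± 0.09 unstressed (adjusted p = 8.03e-09), or 2.46-fold. The difference was 0.72 ± 0.09 at 40 °C (adjusted p = 4.41e-06) and 0.40 ± 0.09 after 40 °C then H2O2 (adjusted p = 0.00127). Over conditions it was 1.25 ± 0.28 (adjusted p = 0.00489), and 0.81 without the WT array after H2O2.

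ppk38, of the family of budding yeast Ark1 and Prk1 kinases that act at actin patches, differed most at 40 °C. ppk38 measured 9.70 and 9.66 in slm9D and hip1D cells at 40 °C, 9.42 and 9.40 after H2O2, 9.60 and 9.67 after 40 °C then H2O2 and 9.22 and 9.19 unstressed. WT cells had 8.57 at 40 °C, 8.52 after H2O2, 9.22 after 40 °C then H2O2 and 8.59 unstressed. The difference was 1.11 ± 0.07 at 40 °C (adjusted p = 3.76e-09) and 0.41 ± 0.07 after 40 °C then H2O2 (adjusted p = 0.000171). ppk30, of the same family, was higher after H2O2 by 0.77 ± 0.08 (adjusted p = 3.02e-07) and lower after 40 °C then H2O2 by 0.20 ± 0.08 (difference -0.20, adjusted p = 0.0368). ppk16 stood at 9.53 and 9.48 in slm9D and hip1D cells at 40 °C, 9.25 and 9.33 after H2O2, 8.99 and 8.97 after 40 °C then H2O2 and 9.10 and 9.24 unstressed. The WT values were 8.89 at 40 °C, 8.22 after H2O2, 8.58 after 40 °C then H2O2 and 8.78 unstressed. Each pair of ppk16 values was above WT in the same condition. In slm9D and hip1D cells ppk33 read 7.26 and 7.18 at 40 °C, 6.48 and 6.52 after H2O2, 6.30 and 6.61 after 40 °C then H2O2, and 6.74 and 6.72 unstressed. In WT cells it read 6.43 at 40 °C, 5.36 after H2O2, 5.87 after 40 °C then H2O2 and 5.80 unstressed. The ppk33 call depended on the scaling. The difference over conditions was 0.86 ± 0.11 (adjusted p = 0.000229), but 0.03 (adjusted p = 0.809) after quantile normalization on the S. pombe probe sets alone, and with that scaling it was -0.27 in place of 0.59 after 40 °C then H2O2.

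Called lower in the mutants in every condition were ppk13 and ppk34, a pattern of 13.1% of all probe sets, and they were also the 2 with both mutants below WT in each condition, as 24.3% of all were. In ppk34 all 8 mutant arrays lay below all 4 WT arrays, which 3.77% of all probe sets did. ppk34 (ckk2) encodes a kinase of the family that activates calmodulin-dependent and AMP-activated kinases. ppk34 measured 7.11 and 7.22 in slm9D and hip1D cells at 40 °C, 7.41 and 7.55 after H2O2, 7.81 and 7.78 after 40 °C then H2O2 and 7.26 and 7.26 unstressed. WT cells had 7.91 at 40 °C, 8.27 after H2O2, 8.32 after 40 °C then H2O2 and 8.17 unstressed. It was lower by 0.74 ± 0.09 at 40 °C (difference -0.74, adjusted p = 4.13e-06), and by 0.91 ± 0.09 unstressed (difference -0.91, adjusted p = 5.78e-07). The differences were -0.78 ± 0.09 after H2O2 (adjusted p = 1.3e-06) and -0.52 ± 0.09 after 40 °C then H2O2 (adjusted p = 0.000163). ppk13 stood at 9.30 and 9.41 in slm9D and hip1D cells at 40 °C, 9.72 and 9.69 after H2O2, 9.44 and 9.49 after 40 °C then H2O2 and 9.26 and 9.31 unstressed. The WT values were 9.55 at 40 °C, 10.11 after H2O2, 9.98 after 40 °C then H2O2 and 9.46 unstressed. The ppk13 differences were smaller, from -0.18 ± 0.07 unstressed (adjusted p = 0.0498) to -0.51 ± 0.07 after 40 °C then H2O2 (adjusted p = 2.72e-05).

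ppk1 was lower in the mutants unstressed and after H2O2, and did not pass the test in the heated conditions. In slm9D and hip1D cells ppk1 read 7.45 and 7.20 at 40 °C, 6.05 and 6.11 after H2O2, 6.68 and 6.58 after 40 °C then H2O2, and 7.86 and 7.72 unstressed. In WT cells it read 7.45 at 40 °C, 7.002 after H2O2, 6.70 after 40 °C then H2O2 and 8.82 unstressed. Unstressed, the difference was -1.03 ± 0.11 (adjusted p = 1.87e-06), and after H2O2 it was -0.92 ± 0.11 (adjusted p = 2.75e-06). At 40 °C it was -0.12 ± 0.11 (adjusted p = 0.367). Over conditions it was -0.53 ± 0.16 (adjusted p = 0.0215), and -0.41 with an adjusted p of 0.0778 without the WT array after H2O2. ppk21 (pdk1), of the family of phosphoinositide-dependent kinases that activate other AGC kinases, was lower in all conditions but H2O2. ppk21 measured 8.83 and 8.74 in slm9D and hip1D cells at 40 °C, 9.48 and 9.41 after H2O2, 10.07 and 9.81 after 40 °C then H2O2 and 8.84 and 8.82 unstressed. WT cells had 9.09 at 40 °C, 9.41 after H2O2, 10.47 after 40 °C then H2O2 and 9.22 unstressed. Its differences were -0.30 ± 0.09 at 40 °C (adjusted p = 0.0108), -0.53 ± 0.09 after 40 °C then H2O2 (adjusted p = 0.000186) and -0.39 ± 0.09 unstressed (adjusted p = 0.00217), against 0.04 ± 0.09 after H2O2 (adjusted p = 0.72).

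**Figure D3:**
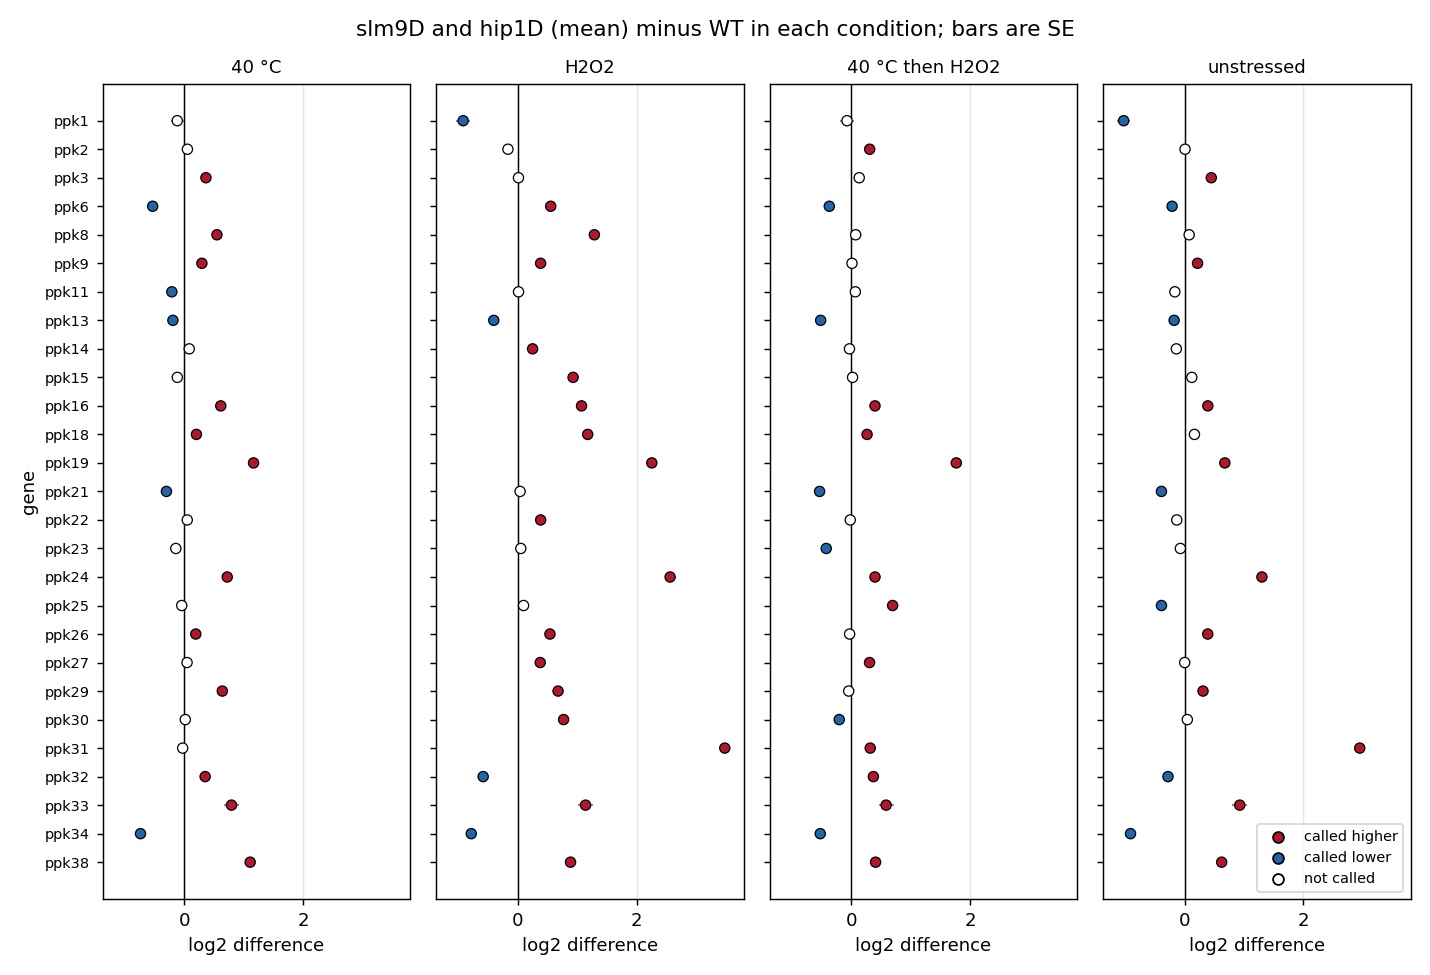
Mean of slm9D and hip1D minus WT for each of the 27 ppk genes in each condition, in log2 units, with bars for the SE, and filled red or blue where the difference was called higher or lower at an adjusted p under 0.05. The points furthest to the right are ppk31, ppk24 and ppk19 after H2O2 (3.48, 2.56 and 2.26) and ppk31 unstressed (2.95).

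Several genes differed between the mutants and WT mainly after H2O2. ppk18 and cek1 encode Greatwall-type kinases that act through Igo1 on the phosphatase PP2A-B55, and with ppk31 they are the family's members in this yeast. ppk18 stood at 9.57 and 9.49 in slm9D and hip1D cells at 40 °C, 7.85 and 7.90 after H2O2, 8.30 and 8.19 after 40 °C then H2O2 and 9.36 and 9.33 unstressed. The WT values were 9.33 at 40 °C, 6.70 after H2O2, 7.97 after 40 °C then H2O2 and 9.18 unstressed. After H2O2 ppk18 was 1.18 ± 0.08 higher in the mutants (adjusted p = 2.73e-09), and in the other conditions the difference was 0.17 to 0.27. cek1, which the naming rule leaves out, read 7.54 and 7.79 in H2O2-treated slm9D and hip1D cells against 6.66 in WT cells, a difference of 1.01 ± 0.11 (adjusted p = 6.51e-07). In the other conditions cek1 differed by -0.14 to -0.05 with adjusted p-values of 0.274 to 0.701. Unstressed, where ppk31 differed by 2.95, ppk18 differed by 0.17 and cek1 by -0.14, and neither was called.

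ppk15, a DYRK kinase related to budding yeast Yak1, and ppk8 had a like course. In slm9D and hip1D cells ppk15 read 10.15 and 10.04 at 40 °C, 10.57 and 10.59 after H2O2, 10.92 and 10.81 after 40 °C then H2O2, and 9.77 and 9.84 unstressed. In WT cells it read 10.21 at 40 °C, 9.65 after H2O2, 10.84 after 40 °C then H2O2 and 9.68 unstressed. The mutants' ppk15 was 0.93 ± 0.07 higher after H2O2 (adjusted p = 1.92e-08), and it did not pass the test in the other conditions. ppk8 measured 8.26 and 8.24 in slm9D and hip1D cells at 40 °C, 8.61 and 8.66 after H2O2, 9.37 and 9.22 after 40 °C then H2O2 and 7.67 and 7.83 unstressed. WT cells had 7.71 at 40 °C, 7.35 after H2O2, 9.22 after 40 °C then H2O2 and 7.67 unstressed. For ppk8 the difference was 1.29 ± 0.09 after H2O2 (adjusted p = 4.26e-09) and 0.55 ± 0.09 at 40 °C (adjusted p = 8.35e-05). In WT cells heat before H2O2 thus went with ppk8 and ppk15 at the mutants' level, and H2O2 alone with a lower one. Over the 12 arrays the 2 genes had the highest correlation of the 351 ppk pairs, at r = 0.953, where the median pair had 0.159 and the lowest, ppk2 with ppk21, had -0.949.

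In 4 ppk genes, ppk6, ppk25, ppk30 and ppk32, the mutants were higher in 1 condition and lower in another, a pattern of 16.5% of all probe sets. ppk25, related to the polarity kinase Kin1, was lower unstressed by 0.39 ± 0.09 (difference -0.39, adjusted p = 0.00172) and higher after 40 °C then H2O2 by 0.70 ± 0.09 (adjusted p = 1.04e-05). ppk25 stood at 8.45 and 8.33 in slm9D and hip1D cells at 40 °C, 7.94 and 8.01 after H2O2, 8.08 and 8.26 after 40 °C then H2O2 and 8.81 and 8.77 unstressed. The WT values were 8.44 at 40 °C, 7.88 after H2O2, 7.47 after 40 °C then H2O2 and 9.18 unstressed. ppk32, a SCYL-type pseudokinase, was lower after H2O2 (difference -0.58 ± 0.09, adjusted p = 2.07e-05) and unstressed (-0.28 ± 0.09, adjusted p = 0.0119), and higher at 40 °C and after 40 °C then H2O2 (0.35 ± 0.09 and 0.37 ± 0.09). In slm9D and hip1D cells ppk32 read 8.05 and 8.08 at 40 °C, 7.94 and 8.10 after H2O2, 7.55 and 7.52 after 40 °C then H2O2, and 8.46 and 8.54 unstressed. In WT cells it read 7.72 at 40 °C, 8.60 after H2O2, 7.16 after 40 °C then H2O2 and 8.78 unstressed. ppk6 was 0.55 ± 0.09 higher after H2O2 and lower in the other conditions, by 0.53 ± 0.09 at 40 °C (difference -0.53, adjusted p = 7.13e-05). ppk6 measured 9.28 and 9.17 in slm9D and hip1D cells at 40 °C, 9.12 and 9.12 after H2O2, 9.36 and 9.35 after 40 °C then H2O2 and 9.70 and 9.49 unstressed. WT cells had 9.76 at 40 °C, 8.57 after H2O2, 9.72 after 40 °C then H2O2 and 9.81 unstressed. In each of these genes the mutant pair lay within 0.21 of each other in every condition, and the sign of the difference turned with the WT value.

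In the remaining ppk genes the mutants differed from WT by at most 0.68 in any condition. ppk29, ppk26 and ppk9, an AMPK-related kinase, were higher in the mutants in all conditions but 40 °C then H2O2, by 0.19 to 0.68. ppk3, a SCYL-type pseudokinase like ppk32, was higher at 40 °C (0.36 ± 0.08) and unstressed (0.45 ± 0.08), and its difference after H2O2 was 0.01 (adjusted p = 0.91). ppk14 and ppk22, both related to the flippase kinase Fpk1 of budding yeast, were higher after H2O2 alone, by 0.25 ± 0.08 and 0.38 ± 0.07. ppk27 was higher after H2O2 and after 40 °C then H2O2, by 0.38 ± 0.09 and 0.31 ± 0.09. ppk2 (tea5), a pseudokinase of cell polarity, was higher after 40 °C then H2O2 alone (0.31 ± 0.07). ppk23 (cdk11), which phosphorylates Mediator, was lower after 40 °C then H2O2 alone (-0.42 ± 0.08), and ppk11, a germinal-centre-type kinase of morphogenesis, was lower at 40 °C alone (-0.21 ± 0.08, adjusted p = 0.0359). The ppk11 call was lost, at -0.17 with an adjusted p of 0.084, with equal medians of the probe sets outside S. pombe. Of the 27 ppk genes, 0 went uncalled in all 4 conditions, as 5.93% of all probe sets did.

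No ppk gene was called different between the 2 mutants. slm9D minus hip1D over the 4 conditions ran from -0.06 to 0.11 over the 27 ppk genes, with standard errors of 0.08 to 0.59. limma called 0 of the 27, 0 had an unadjusted p under 0.05, and 0.103% of all probe sets were called. For ppk31 the difference was -0.04 ± 0.59 (adjusted p = 1), with the error taken over all strains and conditions. Within a condition the mutants' ppk31 values lay at most 0.11 apart.

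Over all 3 strains, 6 ppk genes (22.2%) were called for heat at 40 °C, beside 48.4% of all probe sets. That count depended on the arrays used. Higher at 40 °C than unstressed were 3 ppk genes, ppk31, ppk33 and ppk26, where 22.7% of all probe sets were higher. Lower were 3, ppk1, ppk32 and ppk23, where 25.7% of all were lower. ppk26, at 10.84, 10.81 and 10.64 at 40 °C in slm9D, hip1D and WT, read 10.46, 10.48 and 10.08 unstressed. Its step was 0.43 ± 0.11 (adjusted p = 0.0112), and that of ppk1 was -0.77 ± 0.22 (adjusted p = 0.0168). All 6 genes moved the same way in each of the 3 strains. Leaving out either mutant ended every one of these calls except that of ppk31. Without the WT arrays, with 1 array fewer per condition, 12 ppk genes were higher and 5 lower. No share of all probe sets is given for that fit, so whether the whole array moved alike was not tested. Without the WT array after H2O2 alone, 9 were higher and 4 lower, beside 28.4% and 29.3% of all.

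Of the ppk genes called after H2O2 alone, more were lower than higher. Lower than unstressed were 10 ppk genes, where 29.2% of all probe sets were lower, and 2, ppk13 and ppk21, were higher, where 15.8% of all were higher. The median step was -0.30 for the ppk genes, -0.28 for the 77 other kinases and -0.07 for all probe sets. Without the WT array after H2O2 the median was -0.005 for the ppk genes and -0.04 for all probe sets. With quantile normalization on the S. pombe probe sets alone these medians were -0.04 and 0.02. ppk18 fell by 1.80 ± 0.20 (step -1.80, adjusted p = 0.000181), and ppk1 by 1.75 ± 0.22 (step -1.75, adjusted p = 0.000318). ppk25 followed at -0.98 ± 0.19 (adjusted p = 0.00347) and ppk11 at -0.85 ± 0.10 (adjusted p = 0.000231). ppk11 stood at 8.76 and 8.63 in slm9D and hip1D cells at 40 °C, 7.83 and 7.88 after H2O2, 8.21 and 8.12 after 40 °C then H2O2 and 8.62 and 8.67 unstressed. The WT values were 8.91 at 40 °C, 7.84 after H2O2, 8.10 after 40 °C then H2O2 and 8.81 unstressed. ppk11 had about the same level in the 3 strains after H2O2, unlike ppk18. The other 6 that fell were ppk2, ppk3, ppk6, ppk14, ppk22 and ppk27, by 0.31 to 0.80. Per strain, 13 ppk genes were above their unstressed value in slm9D, 12 in hip1D and 4 in WT. No share of all probe sets is given for these counts, and the WT count rests on the array that stood apart. The median ppk step was -0.16 in slm9D, -0.16 in hip1D and -0.44 in WT, beside -0.04, -0.04 and -0.12 for all probe sets. With quantile normalization on the S. pombe probe sets 7 were higher and 8 lower, beside 22.1% and 23% of all. Without the WT array after H2O2 6 were higher and 10 lower, beside 17.9% and 29.3% of all.

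After 40 °C then H2O2, as many ppk genes were higher as lower than unstressed, 8 each, where 23.8% of all probe sets were higher and 33.5% lower. ppk8 was higher by 1.55 ± 0.24 (adjusted p = 0.000431), ppk21 by 1.16 ± 0.12 (adjusted p = 5.23e-05) and ppk15 by 1.09 ± 0.19 (adjusted p = 0.000988). In all 3 strains these genes had their highest value of the 4 conditions here. Lower were ppk1 (-1.48 ± 0.22, adjusted p = 0.000367), ppk32 (-1.19 ± 0.20, adjusted p = 0.000774), ppk18 (-1.14 ± 0.20, adjusted p = 0.00104) and ppk2 (-1.01 ± 0.11, adjusted p = 5.94e-05). In slm9D and hip1D cells ppk2 read 9.19 and 9.15 at 40 °C, 8.36 and 8.36 after H2O2, 8.05 and 8.01 after 40 °C then H2O2, and 8.92 and 8.96 unstressed. In WT cells it read 9.12 at 40 °C, 8.53 after H2O2, 7.72 after 40 °C then H2O2 and 8.93 unstressed. ppk2 and ppk32 had their lowest value here in every strain, whereas ppk18 had its lowest value after H2O2 alone in every strain, and ppk1 in both mutants.

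Set against H2O2 alone, cells heated first had higher levels of 11 ppk genes, where 18% of all probe sets were higher, and lower levels of 2, where 17.8% were lower. The 2 that were lower were ppk32 (-0.80 ± 0.20, adjusted p = 0.0133) and ppk2 (-0.49 ± 0.11, adjusted p = 0.00799). Among those higher were ppk8 (1.07 ± 0.24, adjusted p = 0.00831), ppk21 (0.68 ± 0.12, adjusted p = 0.00315) and ppk18 (0.67 ± 0.20, adjusted p = 0.0286). Without the WT array after H2O2 ppk18 was higher by 0.35 (adjusted p = 0.0134). ppk24 was higher by 1.09 ± 0.37 (adjusted p = 0.0476), and by 0.50 with an adjusted p of 0.0845 without the WT array after H2O2. Leaving out that array also took the count of higher genes to 7, beside 14.3% of all. Per strain the ppk31 step was 0.56 in slm9D, 0.61 in hip1D and 3.75 in WT, which is 13.4-fold in WT, and over strains it was not called (1.64 ± 0.68, adjusted p = 0.0869, and 0.84 with an adjusted p of 0.336 without the WT array after H2O2).

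**Figure D4:**
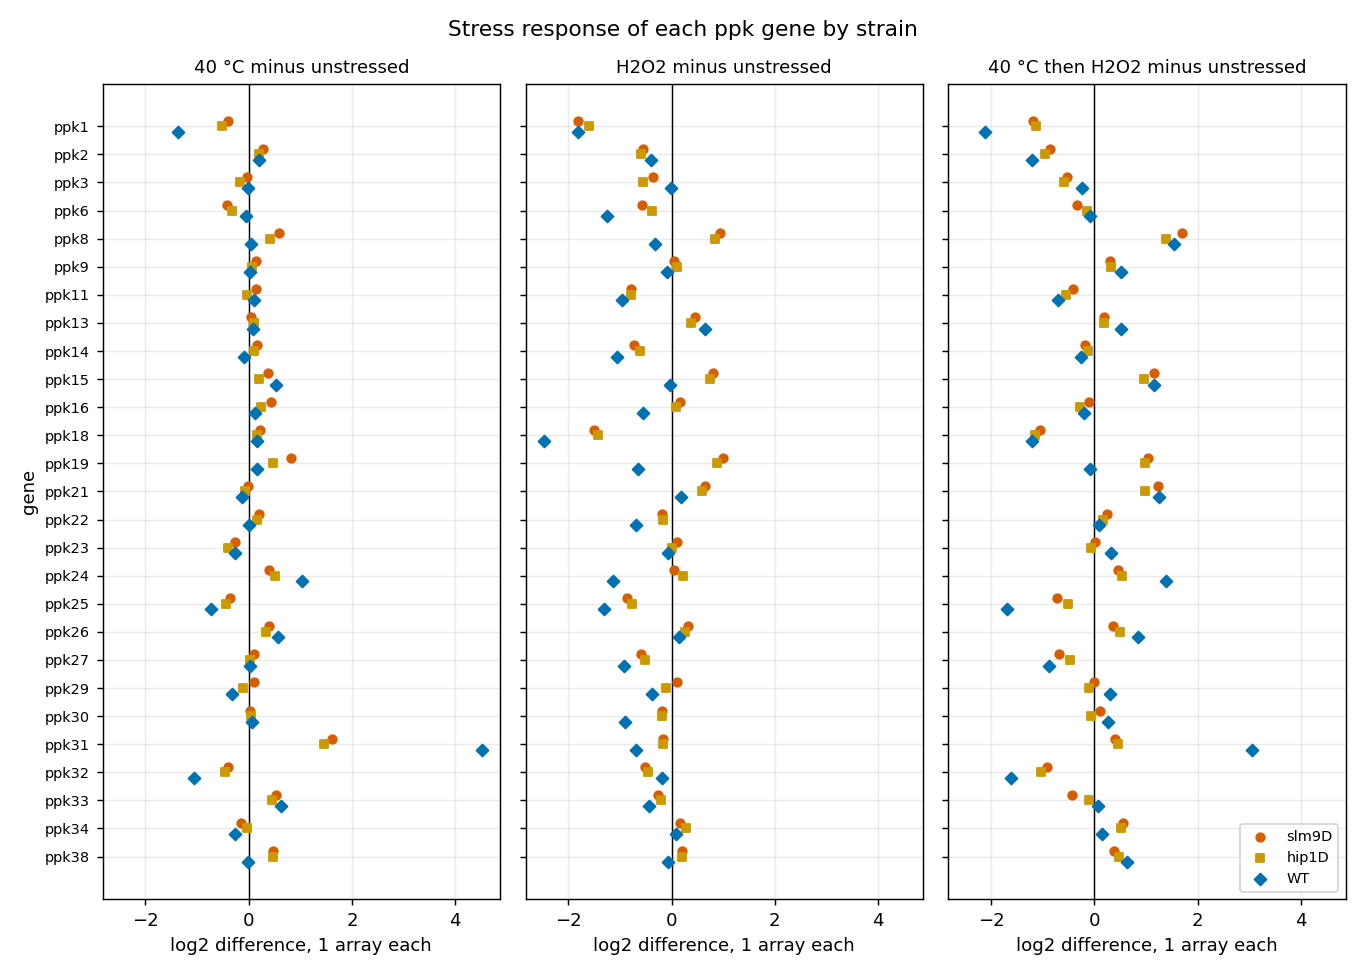
Difference of each stressed array from the unstressed array of its strain for the 27 ppk genes, in log2 units, with slm9D, hip1D and WT as separate symbols (1 array each) in panels for 40 °C, H2O2 and 40 °C then H2O2. The mutants' ppk31 points lie at 1.61 and 1.47 at 40 °C, against 4.51 for WT, and at 0.40 and 0.45 after 40 °C then H2O2, against 3.05 for WT. In the H2O2 panel the mutants' mean lies right of WT in 23 of 27 genes. The same order holds in 1634 of all 2917 probe sets and in 57 of 77 other kinase genes (not drawn). These counts rest on the single WT array after H2O2.

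The response of the mutants to H2O2 differed from that of WT in 66.7% of the ppk genes, beside 47.3% of all probe sets. For 40 °C these shares were 37% and 40.7%, and for 40 °C then H2O2 they were 51.9% and 46%. For H2O2 the mutants' step was above that of WT in 16 ppk genes, where 31% of all probe sets were, and below it in 2, where 16.3% were. For 40 °C it was above in 7 and below in 3, beside 22.7% and 18% of all. For 40 °C then H2O2 it was above in 7 and below in 7, beside 26.8% and 19.2% of all. Under H2O2 ppk19 moved by 1.00 in slm9D and 0.87 in hip1D, against -0.64 in WT, a difference of 1.58 ± 0.13 (adjusted p = 1.77e-08). ppk8 moved by 0.94 in slm9D and 0.84 in hip1D, against -0.32 in WT, a difference of 1.21 ± 0.13 (adjusted p = 5.42e-07). ppk18 fell in all 3 strains, by 1.51 in slm9D (step -1.51), 1.43 in hip1D (step -1.43) and 2.48 in WT (step -2.48). Each H2O2 difference rests on the single WT array that stood apart, and quantile normalization on the S. pombe probe sets took the counts to 11 above and 3 below, with 17.8% and 19.2% of all probe sets.

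The other protein kinases serve as a measure of how the ppk genes compare. Of 77 listed kinase genes in 7 groups, 26 (33.8%) were higher and 10 (13%) lower in the mutants over conditions, beside the 44.4% and 14.8% of the ppk genes. After H2O2 47 (61%) were higher in the mutants, beside 63% of the ppk genes. Without the WT array after H2O2, 7 ppk genes were higher over conditions and 4 lower, beside 22.1% and 27.1% of all probe sets. The counts and differences of the other kinases over conditions are not given without that array. In the MAP kinase and stress group 6 of 14 were higher over conditions and 1 was lower, namely sty1, the stress-activated MAP kinase (-0.74 ± 0.06, adjusted p = 1.26e-05). In the mating and meiosis group of 7, 3 were higher and 2 lower, among them the MAP kinase kinase gene byr1 (-1.39 ± 0.09, adjusted p = 4.59e-06). Of the 9 cytokinesis and polarity kinases 5 were higher and 0 lower, and of the 8 casein kinase and GSK3 genes 0 were higher and 2 lower. Among the 14 TOR, AGC and nutrient kinases 4 were higher, with the protein kinase C gene pck1 at 1.61 ± 0.13 (adjusted p = 2.01e-05), and 1 was lower. Of 16 checkpoint and mitotic kinases 6 were higher and 2 lower, and of 9 transcription and splicing kinases 2 were higher, with lsk1 at 1.48 ± 0.10 (adjusted p = 6.19e-06), and 2 lower.

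A further 7 genes carry a ppk number only as a synonym and so fall outside the naming rule. One is mug27 (ppk35), a kinase of spore membrane formation. mug27 read 6.71 and 6.70 in H2O2-treated slm9D and hip1D cells against 3.81 in WT cells, and 6.49 and 6.60 in unstressed slm9D and hip1D cells against 4.07 in WT cells. The WT value after H2O2 was below that array's background of 4.03, so no difference is given for H2O2 or over conditions. Unstressed, where the WT background was 3.93, mug27 was 2.47 ± 0.14 higher in the mutants (adjusted p = 9.8e-10). Over conditions the mutants were higher in atg1 (ppk36), which starts autophagy (0.61 ± 0.10, adjusted p = 0.00102), and pom2 (ppk5), a DYRK kinase (0.43 ± 0.09, adjusted p = 0.0027). They were also higher in gcn2 (ppk28), the kinase of initiation factor eIF2 in starved cells (0.73 ± 0.25, adjusted p = 0.0315). The gcn2 average leaned on the WT array after H2O2. By condition the gcn2 difference was 1.99 after H2O2 and 0.23 to 0.37 in the others, and no average without that array is given. ksp1 (ppk20), ire1 (ppk4), the sensor of unfolded proteins, and hal4 (ppk10), a kinase of cation homeostasis, did not pass the test (0.21, 0.04 and -0.02).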

How the data were processed

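Per the labels, biotin-labelled cRNA from total RNA was hybridised to Affymetrix Yeast Genome 2.0 arrays. The deposited values are one linear intensity per probe set and array, made by the authors with RMA in Expression Console 1.1, per the submitters' processing notes. RMA scales all arrays to one distribution, S. cerevisiae probe sets included, which can shift S. pombe values. Of 10928 probe sets, 5538 had a gene in the platform annotation. The 2917 with exactly 1 S. pombe gene were tested (2914 matched to RefSeq by gene ID and 3 by symbol), and 0 sample columns were left unused.

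Values were log2-transformed with no pseudocount and no filter and fitted in limma 3.58.1 (R 4.3.3) with lmFit and eBayes with an intensity trend. P-values were adjusted by Benjamini-Hochberg over all 2917 probe sets and called under 0.05. Strain and condition were additive terms for the averages over conditions or strains (6 residual degrees of freedom). A mean for mutants and for WT in each condition gave the per-condition differences (4 degrees of freedom), and a slm9D-hip1D term was added for differences between responses (3 degrees of freedom). There were 13 comparisons. The steps were tested on simulated data. With 1 array per strain and condition, the number of arrays limits the precision.

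Values on every array are given for ppk31 and for up to 4 higher and 4 lower called members per comparison with the largest differences, and for others chosen after their values were seen (ppk16, with all mutant arrays above WT, and cek1). The members, the lists of 79 other kinase genes (77 tested) and these rules were chosen with earlier results of these data known. Alternatives were a filter at background, quantile normalization within the S. pombe probe sets, equal medians of the probe sets outside S. pombe, log2(intensity + 32), no trend, and leaving out each condition or strain. Leaving out the WT array after H2O2 was chosen after seeing the data. A planned search of promoters for motifs was not run, and no sequences are shown.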

Additional observations from a re-analysis of the deposited data

Results flagged for a closer look

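For the ppk genes below, the response of the mutants (mean of slm9D and hip1D) differed from that of WT by the test of the difference itself. Values are the mutants' step minus the WT step in log2 units, each step taken from the unstressed array, so the 3 conditions share those arrays. A positive value means that the mutants' step was the higher one, and the adjusted p-values come from limma over all 2917 probe sets.

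For 40 °C the mutants' step was above that of WT in ppk1 (0.91), ppk32 (0.63), ppk19 (0.49) and ppk38 (0.48). It was below that of WT in ppk31 (-2.98), ppk24 (-0.58) and ppk6 (-0.32), with adjusted p-values of 6.2e-13 for ppk31 and 0.027 for ppk6.

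For H2O2 it was above that of WT in ppk19 (1.58), ppk24 (1.26), ppk8 (1.21), ppk18 (1.01) and ppk31 (0.54), and below it in ppk3 (-0.44) and ppk32 (-0.30, adjusted p = 0.0484). These 7 values rest on the WT array after H2O2, whose median stood apart, and the part of that array in them was not tested.

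For 40 °C then H2O2 it was above that of WT in ppk19 (1.09), ppk25 (1.09), ppk1 (0.96) and ppk32 (0.65), and below it in ppk31 (-2.63), ppk24 (-0.90), ppk26 (-0.42) and ppk29 (-0.35, adjusted p = 0.015). ppk19 was above in all 3 conditions, and so was ppk25, at 0.34 for 40 °C and 0.49 for H2O2. ppk24 was below in the heated conditions only. ppk32 was above in the heated conditions and below after H2O2 alone.

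With either mutant used alone in place of their mean, every called per-condition difference and response difference named kept its sign (112 of 112 values, with no test). These differences were called against the spread between slm9D and hip1D, so a kept sign was largely fixed by the call.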

How the results depend on the processing

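The labels give no replicate numbers, so no further pairing by replicate was made. The steps over strains already compare aliquots within a strain, through the strain term of the fit. Of 94 values of named ppk genes, each recomputed under 5 alternatives (470 values), 460 kept their direction and side of the threshold, 9 lost the call, 0 gained one and 1 reversed. The reversal was ppk33 after 40 °C then H2O2, at -0.27 under quantile normalization on the S. pombe probe sets alone. Under that setting ppk33 also lost its calls over all conditions, unstressed and for 40 °C, the difference between responses became -0.07 (adjusted p = 0.667) for ppk24 at 40 °C and 0.38 (adjusted p = 0.0827) for ppk1 after 40 °C then H2O2. The other lost calls were ppk23 at 40 °C over strains (-0.24, adjusted p = 0.103) and ppk11 at 40 °C in the mutants (-0.17, adjusted p = 0.084) with equal medians outside S. pombe, the ppk31 difference between responses to H2O2 (0.21) with log2(intensity + 32), and ppk24 after 40 °C then H2O2 against H2O2 (adjusted p = 0.0629) with no trend. The ppk31 difference unstressed stayed between 2.12 and 3.01, and after H2O2 between 2.48 and 3.53, under these 5 settings.

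Counts of ppk genes that moved by more than 1.5 times are given here with the share of all probe sets under the same setting. Under quantile normalization they were 5 lower at 40 °C (26.9% of all) and 7 higher after H2O2 (22.1%). For 40 °C then H2O2, 6 were higher in the mutants (24.5%) and 3 had the mutants' step above that of WT (18.8%). With equal medians outside S. pombe 3 were lower in the mutants at 40 °C (29.6% of all). With no trend 7 were higher after 40 °C then H2O2 than after H2O2 (17.3%). Without the WT array after H2O2, 7 were higher in the mutants over conditions (22.1%). Over strains, without that array, 9 were higher at 40 °C (28.4%), 6 after H2O2 (17.9%) and 7 after 40 °C then H2O2 against H2O2 (14.3%). The cause of these shifts was not tested.

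Leaving out 1 condition gave 6 to 10 ppk genes higher and 2 to 4 lower in the mutants over conditions, and 0 for slm9D against hip1D. Leaving out 1 strain leaves fewer arrays and gave 1 to 12 higher and 0 to 5 lower at 40 °C, 0 to 8 higher and 5 to 14 lower after H2O2, 4 to 12 higher and 7 to 12 lower after 40 °C then H2O2, and 0 to 17 higher and 0 to 4 lower for 40 °C then H2O2 against H2O2. Without slm9D these were 1 higher and 0 lower at 40 °C, 0 and 5 after H2O2, and 0 and 0 for 40 °C then H2O2 against H2O2. That last comparison had 3 and 0 without hip1D, and 17 and 4 without WT. Shares of all probe sets are not given for the fits that leave out a condition or a strain. Whether these counts moved with the whole array was not tested. Calls over conditions were lost by ppk31 without the unstressed (1.26) or the H2O2 arrays (1.08), by ppk1 without either (-0.37 and -0.41), and by ppk21 without the unstressed, the 40 °C or the 40 °C then H2O2 arrays (-0.27, -0.29 and -0.22).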

Other observations

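The ppk genes ranged less over the 4 conditions in the mutants than in WT. The median range over the 27 genes was 0.79 in slm9D and 0.59 in hip1D, against 1.06 in WT, and over all probe sets it was 0.62 in slm9D and 0.59 in hip1D, against 0.79 in WT. ppk29 changed least in both mutants, with a range of 0.11 in slm9D and 0.11 in hip1D, against 0.67 in WT, where it was lower at 40 °C and after H2O2. No test was made of these ranges, which are taken over 4 arrays each.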
